A study of Danio rerio with 2 samples.

Results

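The Rag GTPases, the Ragulator and the folliculin complex sit on the lysosome surface, where they pass amino acid signals on to the growth kinase mTORC1. Genes of these complexes were described here in zebrafish cells sorted for GFP under Cldnk. These cells held transcripts of oligodendrocytes, the glia that wrap axons of the brain and spinal cord in myelin, and of other cell types. The members were chosen by name in the authors' comparison, and 10 of its 34326 genes belonged to the group. They were 3 Rag GTPase genes (rraga, rragca and rragd), 3 folliculin complex genes (flcn, fnip1 and fnip2) and 4 Ragulator genes (lamtor1, lamtor2, lamtor3 and lamtor5). All 10 had a fold and a p-value, as did 25757 genes in all, and no filter on low values was applied.

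RNA was sequenced from cells sorted for GFP under Cldnk from larvae at 5 days post fertilization, of the strain TL (Tupfel long fin). The groups were rraga mutant and wild type, with 1 record each, and each record merged 2 biological replicates per the labels. The labels give neither the mutant allele nor what it removes. The data used here were the authors' comparison of rraga mutant over wild type, with 1 fold per gene and no value per replicate or genotype, so individual samples could not be shown and sequencing depth cannot be known. That direction rests on the title of the table, which names the mutant against control. The name of the spreadsheet that holds it gives the other order, control against rraga mutants. The table's level of a gene is whichever genotype mean was higher, on a normalized scale of unstated unit, and whether it is scaled to gene length is not known, so an order of levels among genes is no order of transcript abundance.

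Rag GTPases act as pairs of unlike partners, RagA or RagB with RagC or RagD, and the pentameric Ragulator anchors them to the lysosomal membrane. When amino acids are plentiful the pair recruits mTORC1. Folliculin, together with its partners FNIP1 and FNIP2, activates GTP hydrolysis by RagC and RagD, and in mammalian cells this step lets mTORC1 phosphorylate the lysosomal transcription factors TFEB and TFE3 and keep them in the cytoplasm. In mammalian cells FLCN and RRAGD have themselves been described as targets of those factors. In zebrafish, rraga is known for its role in microglia and in myelination.

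In rraga mutant cells flcn was the 1 member that passed the threshold, an FDR p-value under 0.05 by the authors. Its value was 4.50-fold higher than in wild type in the authors' deposited table. The other 9 did not pass the threshold. All 10 members had a log2 fold above 0 in the authors' deposited table, from 0.36 for fnip2 to 2.17 for flcn, with a median of 1.03. Over all tested genes the median log2 fold was 0.02, and 51.0% of genes had a fold above 0. Among the 5792 genes of level 10 or more the median was 0.15, and 62.3% had a fold above 0. Of the members, 7 reached that level. Log2 folds of 1 or more belonged to 5 of the 10 members, against 22.4% of all tested genes. Those 5 were all among the 7 members of level 10 or more, and the share of tested genes of that level was 10.9%. Since the level is the higher genotype mean, a gene can reach 10 in the mutant only. If a fold is the ratio of the genotype means, rragca (level 18.5, 2.23-fold) and lamtor1 (level 15.3, 2.11-fold) did so. The count of 5 among 7 thus rests in part on the cut itself. The share of all tested genes that rose by the authors' FDR p-value was 0.132%, and it was 0.535% at level 10 or more.

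**Figure D1:**
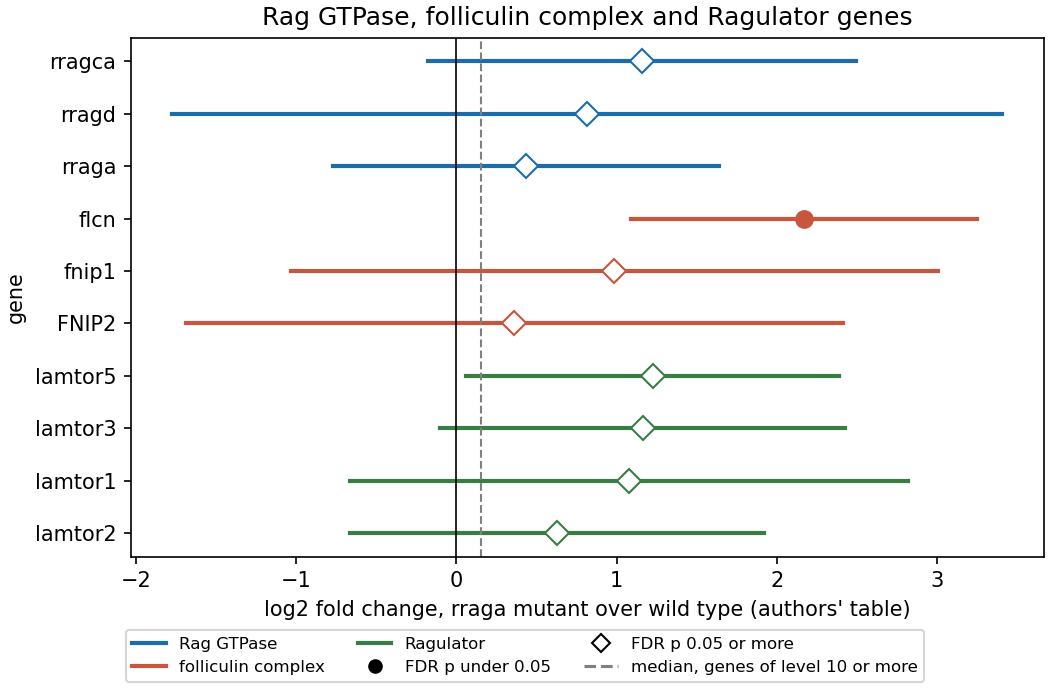
Log2 fold change of each member, rraga mutant over wild type, in the authors' deposited table (horizontal axis), by complex. Points are the deposited folds, filled where the FDR p-value was under 0.05, and bars are 95% intervals implied by the fold and its p-value. All 10 points lie right of 0, only the bars of flcn and lamtor5 stay right of it, and the dashed line marks 0.15, the median of genes of level 10 or more.

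The bars in the plot of member folds give the precision of each value. Each is a 95% interval from the standard error that a fold and its p-value imply together under a normal test. The authors' test is not given in the sources used here, so it is not known whether this error carries the spread between replicates. The implied standard errors ran from 0.55 to 0.89 on the log2 scale for the 7 members of level 10 or more, and from 1.03 to 1.32 for the 3 below it. At those errors a member needed a log2 fold of between 2.17 (flcn) and 5.21 (rragd) to pass the threshold, which is 4.49-fold to 37.1-fold. The interval of 9 members held a log2 fold of 1, a doubling in the mutant, and that of 8 also held 0. A doubling of any of the 10 would thus have missed the threshold.

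Among the Rag GTPase genes the mutated one comes first. rraga encodes RagA, and the table pairs its name with ENSDARG00000104149, which lies on chromosome 14 from 13738230 to 13788843 of GRCz11. Its log2 fold was 0.44 in the authors' deposited table (level 33.1; unadjusted p = 0.477; FDR adjusted p = 0.9999). The implied interval ran from -0.77 to 1.64, or from 0.588-fold to 3.11-fold on the linear scale. The transcript was thus measured in these cells, and a fall to under 0.588 of the wild-type value lay outside the interval. Because the lesion is not described, whether the labels are right cannot be judged from it. RefSeq lists RRAGB as a synonym of rraga, and no separate RagB row was matched.

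rragca and rragd encode the partners that pair with RagA. rragca (chromosome 16, 33209828 to 33225089) had a log2 fold of 1.16 in the authors' deposited table (level 18.5, p = 0.0890). Its implied interval ran from -0.18 to 2.50. rragd (chromosome 17, 15780167 to 15896378), whose mammalian counterpart is among the reported TFEB targets, had a log2 fold of 0.82 in the authors' deposited table (level 5.66, p = 0.536). Its implied interval, from -1.77 to 3.41, was the widest of the 10. The region of rragd also spans all of gabrr2a, a GABA receptor gene on the same strand, which had a log2 fold of 3.66 in the authors' deposited table (level 2.67, p = 0.0302). On that strand syne3 overlaps it as well, by 5273 bases, with a log2 fold of -0.72 (level 1.04). CR759878.1, on the other strand, overlaps it by 17398 bases and had a log2 fold of -3.43 (level 0.0326). How reads were divided among overlapping genes is not given in the sources used here, so the value of rragd is uncertain on that account as well. The second RagC gene, rragcb, is not among the 10, and it had a log2 fold of -0.30 in the authors' deposited table (level 1.22), with an implied standard error of 1.82. The RagC copies thus had folds of opposite sign, and the error of rragcb spans the difference.

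In the folliculin complex 1 gene of 3 passed the threshold. This was flcn, which encodes folliculin and lies on chromosome 16 from 13928377 to 13955930. It rose with a log2 fold of 2.17 in the authors' deposited table (level 46.6; unadjusted p = 7.86e-05; FDR adjusted p = 0.0477). The implied standard error was 0.55 and the interval ran from 1.09 to 3.25, or from 2.13-fold to 9.49-fold higher in the mutant. No other gene of the table overlapped its region. At stricter limits, the authors' FDR p under 0.01 or their Bonferroni p under 0.05, flcn was not called. It lies close to the threshold, since flcn had the 56th smallest p-value of the 57 genes called, and the next gene outside, AMDHD1, stood at 0.0529 by FDR in the authors' deposited table.

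The folliculin-interacting proteins are needed for folliculin's action on the Rag GTPases. fnip1 (chromosome 21, 45468201 to 45510900) had a log2 fold of 0.99 in the authors' deposited table (level 2.47, p = 0.338). Its implied interval ran from -1.03 to 3.005. fnip2, spelled FNIP2 in the table (chromosome 1, 19072058 to 19109665), had a log2 fold of 0.36 in the authors' deposited table (level 6.32, p = 0.730). Its interval ran from -1.69 to 2.41. An antisense gene of level 0.875, BX323590.3, overlaps the region of fnip2 by 931 bases. That gene had a log2 fold of 7.59 (p = 0.0429) in the authors' deposited table, so the value of fnip2 is uncertain on that account as well. The intervals of all 9 other members, fnip1 and fnip2 among them, overlapped that of flcn. Whether flcn differed from its partners in response was not tested, since the table holds no values per replicate.

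The Ragulator genes had the narrowest range of folds. LAMTOR1, the subunit that lipid groups attach to the lysosomal membrane, wraps around the other subunits, which form paired roadblock domains. lamtor1 (chromosome 15, 44046439 to 44054672) had a log2 fold of 1.08 in the authors' deposited table (level 15.3, p = 0.224). lamtor2 (chromosome 16, 46718139 to 46724490) had the smallest fold of the 4, 0.63 in the authors' deposited table (level 58.3, p = 0.340). lamtor3 (chromosome 13, 12346789 to 12353601), whose mammalian product dimerises with LAMTOR2 and was first described as a scaffold of MEK and ERK, had a log2 fold of 1.16 in the authors' deposited table (level 34.9, p = 0.0712).

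lamtor5 (chromosome 8, 24710981 to 24725151) had the largest Ragulator fold, 1.23 in the authors' deposited table (level 60.2). Its p of 0.0387 was unadjusted, and its FDR adjusted p was 0.685. The implied interval of lamtor5 ran from 0.06 to 2.39, and those of lamtor1, lamtor2 and lamtor3 held 0. lamtor4, the remaining subunit, is not among the 10 members, and it had a log2 fold of 0.999 in the authors' deposited table (level 119, p = 0.0534). With it included, all 5 Ragulator genes had folds between 0.63 and 1.23 and a median of 1.08, and 0 of the 5 passed the threshold, 1 of them with an unadjusted p under 0.05. Implied standard errors of these 5 were between 0.52 and 0.89, and their intervals all overlapped. At an unadjusted p under 0.05, lamtor5 and flcn were the 2 of 10 members higher in the mutant, where 4.43% of all tested genes were.

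**Figure D2:**
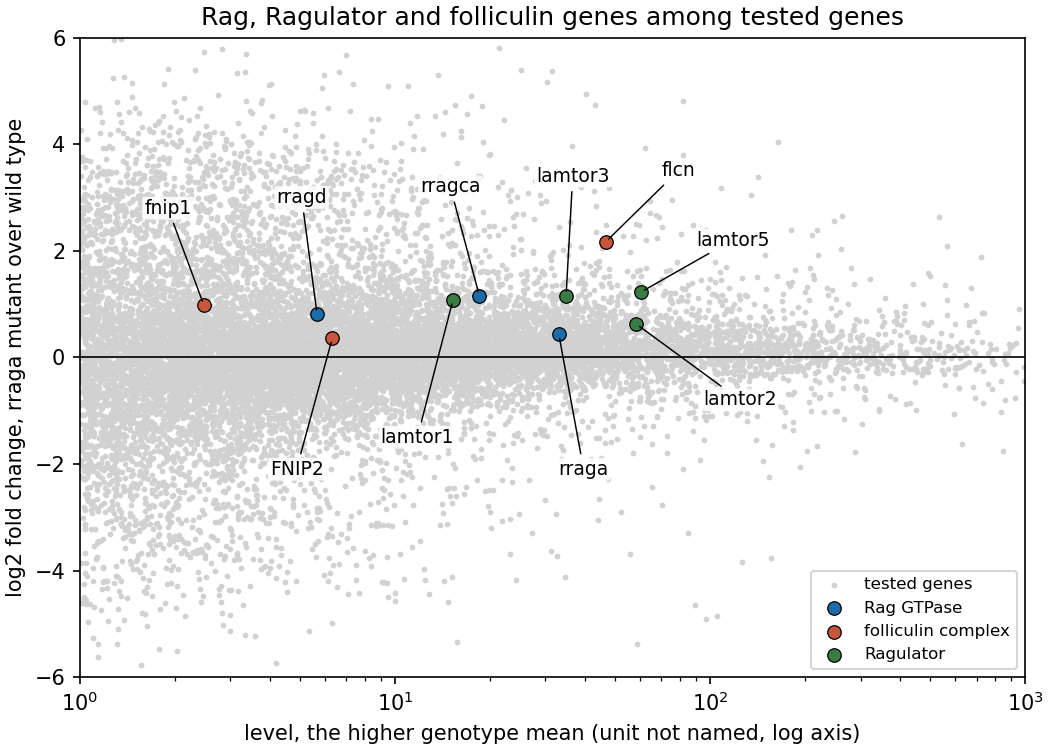
Log2 fold change, rraga mutant over wild type (vertical axis), against the level, the higher genotype mean in an unnamed unit on a log axis, in the authors' deposited table. Grey points are 14978 tested genes within the axes (10779 lie outside) and coloured points are the 10 members. All members lie above 0, flcn lies highest at 2.17, and the grey cloud widens towards low levels, where fnip1, rragd and fnip2 lie.

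The plot of folds against level places the members among the rest of the table. They lie on 8 chromosomes, with flcn, rragca and lamtor2 on chromosome 16 at well separated positions. rraga is the 1 member on chromosome 14. For 7 of the 10, no other gene of the table overlapped the region; the exceptions were rragd, fnip2 and lamtor5, and the gene overlapping lamtor5, prok1, was listed at level 0.

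Other genes of the amino acid branch of mTORC1 signalling were set beside the members. The list also took in genes of lysosome position and partners of the Rag GTPases or folliculin. Of 41 listed, 40 were found with a p-value. None passed the authors' threshold. At an unadjusted p under 0.05, 1 was higher in the mutant and 0 were lower. Of all 25757 tested genes, 1140 were higher and 1349 lower at that limit, and 34 rose and 23 fell by FDR p-value. Log2 folds were above 0 for 28 and below 0 for 12, where 51.0% of all tested genes were above 0. The median of the branch was 0.36. It stood between the members' median of 1.03 and the 0.02 of all tested genes, but these sets differ in level. At level 10 or more the medians were 1.16 over 7 members, 0.39 over 16 branch genes and 0.15 over 5792 tested genes. The level is the higher genotype mean, so that cut can itself shift these medians.

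GATOR1, which inactivates RagA, and GATOR2, which restrains GATOR1, had medians of 0.03 over 3 genes and -0.27 over 5 genes. nprl2 of GATOR1 had a log2 fold of -1.07 (p = 0.303) in the authors' deposited table. For GATOR2, the log2 fold in the authors' deposited table was -2.07 for wdr59 (level 0.545, p = 0.204) and -0.27 for sec13 (level 50.8, p = 0.611). KICSTOR, which holds GATOR1 at the lysosome, had a median of 0.96 over 4 genes. Its subunit gene kics2, listed as si:ch211-125a15.1, had a log2 fold of 1.16 (p = 0.0867) in the authors' deposited table.

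Among 12 genes of amino acid sensors and transporters the median log2 fold was 0.28, with 7 above 0 and 5 below. Over the 4 of them at level 10 or more the median was -0.36. sesn2, which encodes a leucine sensor that binds GATOR2, had a log2 fold of 2.49 in the authors' deposited table (level 4.76, p = 0.0508). sesn3, a related gene, had a log2 fold of 0.40 (p = 0.426) in the authors' deposited table. The 8 genes of BORC, a complex that positions lysosomes and binds Ragulator, had a median of 0.52, and 7 were above 0. kxd1 of BORC had a log2 fold of 2.40 in the authors' deposited table (level 19.2; unadjusted p = 0.0112; FDR adjusted p = 0.552). bloc1s1, which BORC shares with a related complex, had a log2 fold of 0.63 (p = 0.436) in the authors' deposited table. The 8 genes found of other Rag or folliculin partners had a median of 0.37. Of these, arf1 had a log2 fold of 0.39 (level 34.4, p = 0.496) and smcr8b 1.81 (level 0.353, p = 0.325) in the authors' deposited table.

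**Figure D3:**
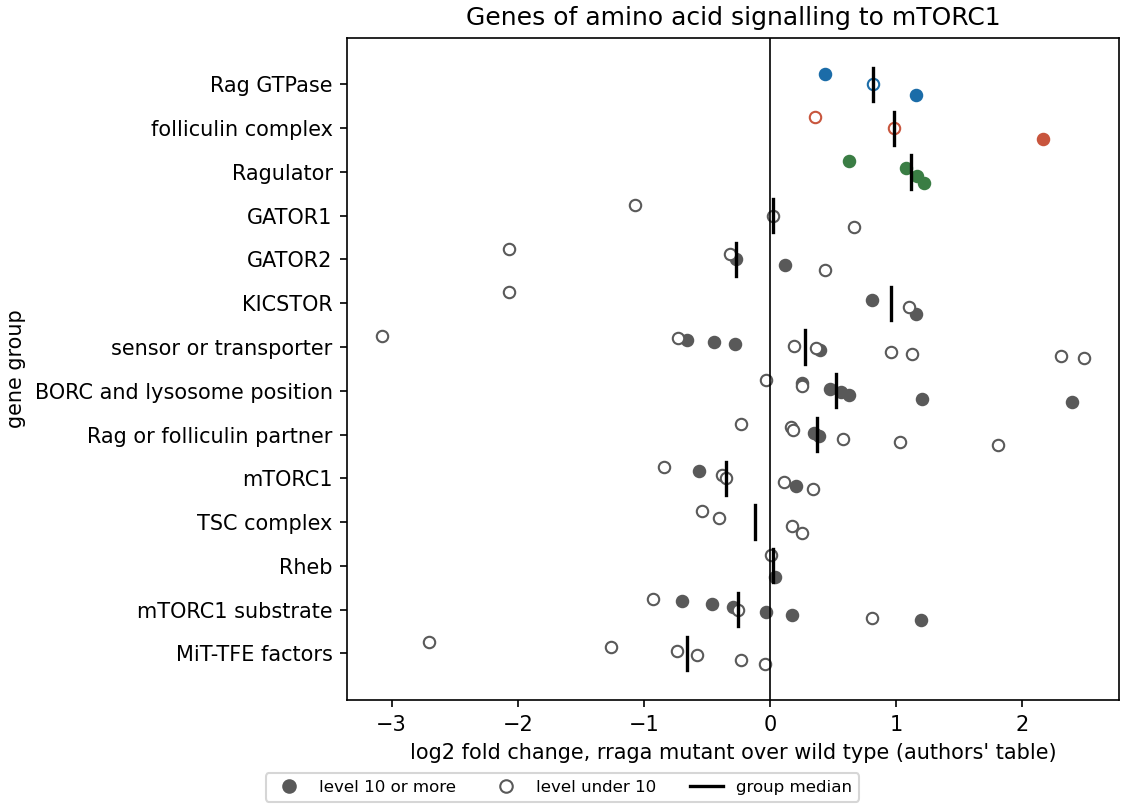
Log2 fold change, rraga mutant over wild type, in the authors' deposited table (horizontal axis) for the members (coloured, top 3 groups) and the other genes of the pathway (grey), by complex. Each point is 1 gene, filled at level 10 or more, and the vertical bars are group medians. All points of the 3 member groups lie right of 0, and those of the MiT-TFE factors lie left of it at levels under 10.

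Beyond the amino acid branch, 22 genes were listed of mTORC1 itself, its substrates, and Rheb with the TSC complex, which form a separate input to mTORC1. They had a median log2 fold of -0.14, with 10 above 0 and 12 below. None passed the threshold, and at an unadjusted p under 0.05, 1 was higher in the mutant and 0 were lower. Of all tested genes 4.43% were higher at that limit. eif4ebp3l, a translational repressor gene of the 4E-BP family, had the smallest p, with a log2 fold of 1.20 (p = 0.0172, FDR adjusted p = 0.605) in the authors' deposited table. akt1s1, which encodes an inhibitory mTORC1 subunit, had a log2 fold of -0.57 (p = 0.271) in the authors' deposited table. rhebl1, of the small GTPases that activate mTORC1, had 0.04 (p = 0.945), and tsc1a and tbc1d7 of the TSC complex, which switches Rheb off, had -0.54 (p = 0.572) and 0.25 (p = 0.764), all as log2 folds in the authors' deposited table. eif4ebp1, another gene of that family, had a log2 fold of 0.18 in the authors' deposited table (level 240, p = 0.759). The plot of pathway groups shows these genes on both sides of 0.

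The 6 MiT-TFE factor genes all had log2 folds below 0, with a median of -0.66 and levels of 0.654 to 4.13. Of all 25757 tested genes, 12626 had a log2 fold below 0. Of the 6 factors, 0 were past the threshold or at an unadjusted p under 0.05. tfeb had a log2 fold of -0.04 in the authors' deposited table, with an implied standard error of 1.08. tfe3a had -0.74 (p = 0.544) and tfe3b had -2.70 (p = 0.155) as log2 folds in the authors' deposited table. The implied standard errors of the 6 factors ran from 1.08 to 2.14, so even several-fold changes of their transcripts would have missed the threshold.

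The sorted cells held transcripts of other cell types. All 16 oligodendrocyte markers were present, 15 of them at level 10 or more, with mbpa at 5321 in the authors' deposited table, and they held 2.07% of the summed level. That sum adds the higher genotype mean of each gene, so it belongs to neither genotype, and its shares are no shares of RNA or of cells. The median log2 fold of the oligodendrocyte markers was -0.52, with 5 above 0 and 11 below. By FDR p-value mpz fell and hapln2 rose, and at an unadjusted p under 0.05, 2 were lower and 1 was higher. Over all 25757 tested genes 23 fell and 34 rose, and at an unadjusted p under 0.05, 1349 were lower and 1140 higher. The 16 digestive organ markers held 16.2% of the summed level and had a median of -0.61, with 0 called and 3 lower in the mutant at an unadjusted p under 0.05. Of 10 erythrocyte markers 8 had a log2 fold above 0 and 2 below, with a median of 1.51. Of the 10, 1 rose, and at an unadjusted p under 0.05, 4 were higher and 0 were lower. Of 19 macrophage markers, which mark cells rich in lysosomes, 10 were above 0 and 8 below, with a median of 0.34, a summed level of 405 and 0 called; at an unadjusted p under 0.05, 3 were higher and 1 was lower. At level 10 or more the median log2 fold was 1.17 for 6 macrophage markers and 1.16 for the 7 members. It was 1.73 for 7 erythrocyte, -0.20 for 8 neuron and -0.62 for 9 radial glia markers. For 15 oligodendrocyte and 16 digestive organ markers it was -0.69 and -0.61. At all levels the medians of the macrophage markers and the members were 0.34 and 1.03. The level is the higher genotype mean, so a gene can reach 10 in 1 genotype only. The cut itself can thus shift the medians at level 10 or more, those of the macrophage markers and the members included. In the authors' deposited table, 4 of the 6 macrophage markers of that level had log2 folds above 0, mfap4 with 2.60, slc7a7 with 1.79, ctss2.1 with 1.33 and grn1 with 1.01. The log2 fold in the authors' deposited table was -0.15 for apoeb and -0.22 for lcp1, the other two. Among the macrophage markers c1qa was listed at level 0, and csf1ra, csf1rb and p2ry12 were under level 1. The 1 macrophage marker lower at an unadjusted p under 0.05 was cd74a, with a log2 fold of -8.18 (level 0.811, p = 0.0156). marco, also below level 10, had a log2 fold of 3.68 (level 2.59, p = 0.0273) in the authors' deposited table. Neuron markers had a median of -0.77 over 13 genes, with 0 called and 0 at an unadjusted p under 0.05. Radial glia markers had a median of -0.59 over 10 genes, and 1 of them, hepacama, fell with a log2 fold of -2.28 in the authors' deposited table (FDR adjusted p = 0.0470). The part of these other cells in the members' folds was not tested. In such bulk samples, fewer cells of a type and less RNA per cell cannot be told apart.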

How the data were processed

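RNA of sorted Cldnk:GFP cells was compared between rraga mutant and wild-type larvae. The file is a table of the authors' own comparison. Per the submitters' processing notes the build was GRCz11; which aligner, counting tool, normalization and test the authors used is not given in the sources used here. Per the file headers, its measures are the maximum group mean (the level), the fold on a log2 and on a signed linear scale, and the p-value, unadjusted, by FDR and by Bonferroni. The level was deposited as a normalized expression signal of unnamed unit. The deposited log2 fold and p-value columns hold a spreadsheet error for 8569 genes of level 0. The authors' FDR p-value matched a Benjamini-Hochberg adjustment over all 34326 genes, to within 1.28e-04. No sequencing depth can be read from the table.

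Standard errors were implied from each deposited log2 fold and two-sided p-value (scipy 1.17.1, pandas 2.3.3, matplotlib 3.10.9, Python 3.11.15). The calculation was run on data simulated under the same normal test. That run checks the arithmetic and cannot show whether the authors' test was normal. A gene was called at the authors' FDR p-value under 0.05. Members were named in full, and of each sub-complex of the wider lists the genes of smallest p-value and of highest deposited level, since none was called; the level served here only to pick names. Of 167 listed symbols, 164 were found: 157 by name, 3 by an older name, 2 by RefSeq synonym and 2 by Ensembl identifier. c9orf72 and gap43 were not matched, and rragb led to the row of rraga. The members and lists were chosen with earlier results of these data known. Alternatives were other adjustments, thresholds and a centring of the folds. Promoter motifs were not analysed here.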

Additional observations from a re-analysis of the deposited data

How the results depend on the processing

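The call of flcn held when the adjustment of the authors' p-value took in only genes of level 1 or more, of level 10 or more, or with a p-value, and with an absolute log2 fold of at least 1 required as well. Those settings were hardly a check of the call. They adjusted over fewer genes, which gave flcn smaller adjusted p-values, and its log2 fold was above 1 already. The call was lost with stricter limits, with 0 members called at the authors' FDR p under 0.01 and 0 by their Bonferroni p. There the log2 fold of flcn remains 2.17 because only the limit differs. No wider pathway gene was called under any alternative tried. With folds centred on genes of level 10 or more, which takes 0.15 from each, all 10 members stayed above 0 and their median was 0.88; of 30 named genes, rhebl1 alone changed sign, to -0.11. In settings added after seeing the data, the members' median was 1.08 without rraga and 1.08 without the 3 members whose region another gene overlaps. No paired analysis was possible because the table holds no value per replicate, and leaving out replicates was not run for the same reason. Precision is limited most below level 10.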

Other observations

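Around rraga itself, 29 other genes of the table lie within 1 Mb on either side on chromosome 14, and 23 of them had a p-value. None passed the authors' threshold by FDR p-value, and 0 had an unadjusted p under 0.05. Of the 23, 18 had a log2 fold below 0, with a median of -0.73 at a median level of 1.92. Over all 25757 tested genes, 12626 had a log2 fold below 0, and the median was 0.02. The 3 neighbours of level 10 or more, chosen after their values were seen, were the actin-bundling gene pls3, si:dkey-27i16.2 and the myelin gene plp1a. Their log2 folds in the authors' deposited table were 0.16 (p = 0.792), 1.39 (p = 0.224) and -1.04 (p = 0.0914).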
